A study of Mus musculus with 12 samples.

Results

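Disease-associated microglia are microglia that have left their resting state around dying neurons, plaques or demyelinated axons and have switched on genes for phagocytosis, lysosomal digestion and lipid handling. The 10 genes described here are activation genes of that state: Trem2, Tyrobp, Clec7a and Itgax at the cell surface, Gpnmb, Spp1, Cst7 and Lyz2 in the lysosomal and secretory compartments, the sugar-binding protein Lgals3, and the small surface glycoprotein Cd52. They were taken by symbol, as a list chosen with earlier results of these data known, from the 54532 genes counted in each library. All 10 were found once and were among the 18537 genes with enough counts to be tested.

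RNA came from the striatum of C57BL/6J mice, and 12 polyA+ libraries fell into 4 groups of 3. Mice of the 3d-SN011, SN011 and vehicle groups had transient middle cerebral artery occlusion (tMCAO), a stroke model in which the artery feeding the striatum is blocked and then reopened, and mice of the sham group had a sham operation. The 3d-SN011 and SN011 groups were given SN-011, which blocks STING, an adaptor of innate immune sensing, and the vehicle and sham groups were given PBS. The labels give the 3d-SN011 and SN011 groups the same treatment and leave the prefix 3d unexplained, and no vehicle or sham library carries it, so the drug and whatever 3d stands for cannot be told apart in any comparison of the 3d-SN011 libraries with PBS libraries. Age and sex were not stated. Whether each library is a separate mouse is not stated either, and the p-values below then measure only how far these samples spread, which may be technical.

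The receptor TREM2 binds lipids and lipoproteins and signals through its membrane partner TYROBP (DAP12), whose phosphorylated tail recruits the kinase SYK. In mouse models of Alzheimer disease, loss of Trem2 keeps microglia from completing the switch: Tyrobp and a few other genes rise early, and Itgax, Clec7a, Cst7 and Spp1 belong to the later, TREM2-dependent step. None of the 10 genes belongs to microglia alone: monocytes and macrophages that enter an infarct can make Gpnmb, Spp1, Lgals3, Lyz2 and Itgax as well. In RNA from whole tissue, more cells of a type and more RNA per cell cannot be told apart, and this holds for every value below.

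Library totals lay between 15806076 and 18622053 counts, so that 1 CPM, the unit of level used here (counts scaled to library size by TMM), stood for 15.4 to 20.2 reads. Defining microglia genes such as Tmem119 and Csf1r had reads in every library, and their values follow below. The 14 marker genes of striatal projection neurons were present in every group, with summed levels of 441 to 2476 CPM in the 3d-SN011 libraries, 5764 to 10175 in SN011, 9831 to 10377 in vehicle and 9701 to 10390 in sham, and all 14 were lower in 3d-SN011 than in vehicle (edgeR quasi-likelihood test, adjusted p under 0.05). In that comparison 57.1% of all genes tested were called, with 28.2% lower. Replicate 3 of the SN011 group and replicate 3 of the vehicle group stood nearer to the 3d-SN011 libraries in most of the 10 genes than their group mates did, and values without them stand beside the results they moved most.

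Proximal promoter windows were in the RefSeq table (GRCm38.p6) for 8 of the 10 genes, the exceptions being Tyrobp and Cd52. The AP-1 motif was searched as TGANTCA, a loose form that allows any middle base and reads the same on both strands. A match lay from 250 bases before to 50 bases after the start in 4 of these 8 genes. Of 27025 genes with a window, 8.97% had a match. The windows of these 4 genes are shown from 100 bases before to 20 bases after the start, on the strand of the gene. They are shown because these genes were high together in the libraries described below. Capitals mark the match to TGANTCA. It begins 9 bases after the start in Gpnmb and 6, 56 and 9 bases before it in Cst7, Itgax and Trem2. Its middle base was C in Gpnmb, G in Itgax, T in Cst7 and A in Trem2. Matches with C or G there were not counted apart over all genes.
Gpnmb, chr6:49036418-49036537 (+): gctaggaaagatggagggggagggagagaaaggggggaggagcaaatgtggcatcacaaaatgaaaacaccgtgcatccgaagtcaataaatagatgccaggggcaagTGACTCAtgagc
Cst7, chr2:150570315-150570434 (+): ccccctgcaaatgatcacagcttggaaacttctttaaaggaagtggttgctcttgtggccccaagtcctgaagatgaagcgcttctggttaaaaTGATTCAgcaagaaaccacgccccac
Itgax, chr7:128129450-128129569 (+): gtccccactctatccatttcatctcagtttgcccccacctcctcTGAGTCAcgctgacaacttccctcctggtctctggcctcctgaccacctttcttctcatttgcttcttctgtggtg
Trem2, chr17:48346301-48346420 (+): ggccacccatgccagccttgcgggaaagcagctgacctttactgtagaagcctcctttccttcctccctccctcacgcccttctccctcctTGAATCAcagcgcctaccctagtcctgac

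The other motifs searched, on both strands, were the ETS letters GAGGAAG of PU.1 sites (2 of the 8 genes, Spp1 and Trem2, against 15.4% of all genes with a window), the RUNX letters TGTGGTTT (2 of 8, Gpnmb and Lyz2, against 2.11%) and the ETS-IRF letters GGAA, any 2 bases and GAAA (1 of 8, Clec7a, against 3.16%). The Clec7a match is the same stretch of bases, seen in the windows of 2 nearby start sites. CACGTG and TCATGTG, the E-box and M-box letters read by MITF and TFEB, TTGNNNCAA of C/EBP sites and the NF-kB letters GGGA, any 2 bases and TTCC had 0 matches in the windows of the 8 genes, against 8.09%, 4.31%, 6.60% and 1.63% of genes. No match of one motif overlapped a match of another. A match says only that these letters stand in the window, and the motifs were chosen after expression values were known.

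All 10 genes were highest in the 3d-SN011 libraries, intermediate in SN011 and low in vehicle and sham. By edgeR's quasi-likelihood test across all genes, 10 of 10 were higher in 3d-SN011 than in vehicle, where 28.9% of all genes tested were called higher, and the median log2 fold change was 5.97 (lowest 3.86, highest 8.10) against 0.01 over all genes. The lowest 3d-SN011 library stood above the highest vehicle library for 10 of 10, as it did for 29.5% of all genes. Against SN011, 8 of 10 were higher in 3d-SN011 and 7 of 10 did not overlap, where 23.6% and 24.6% of all genes did the same. SN011 against vehicle gave 0 of 10 calls, with 0.0108% of all genes called higher, although 10 of 10 had an unadjusted p under 0.05 (11.1% of all genes) and 10 of 10 did not overlap (9.01%). SN011 against sham gave 3 of 10 calls, with 0.113% of all genes called higher, and no overlap for 10 of 10 (12.8%). Against sham, 10 of 10 were higher in 3d-SN011 (29.8% of all genes), again with no overlap (31.8%). For vehicle against sham 0 of 10 and 0% of all genes were called, 0 of 10 had an unadjusted p under 0.05 (2.52% of all genes), and 3 of 10 did not overlap (6.86%). The comparisons share libraries and are not independent of each other. The 10 genes were chosen with earlier results of these data known, so these shares of all genes are not an independent yardstick for them.

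**Figure D1:**
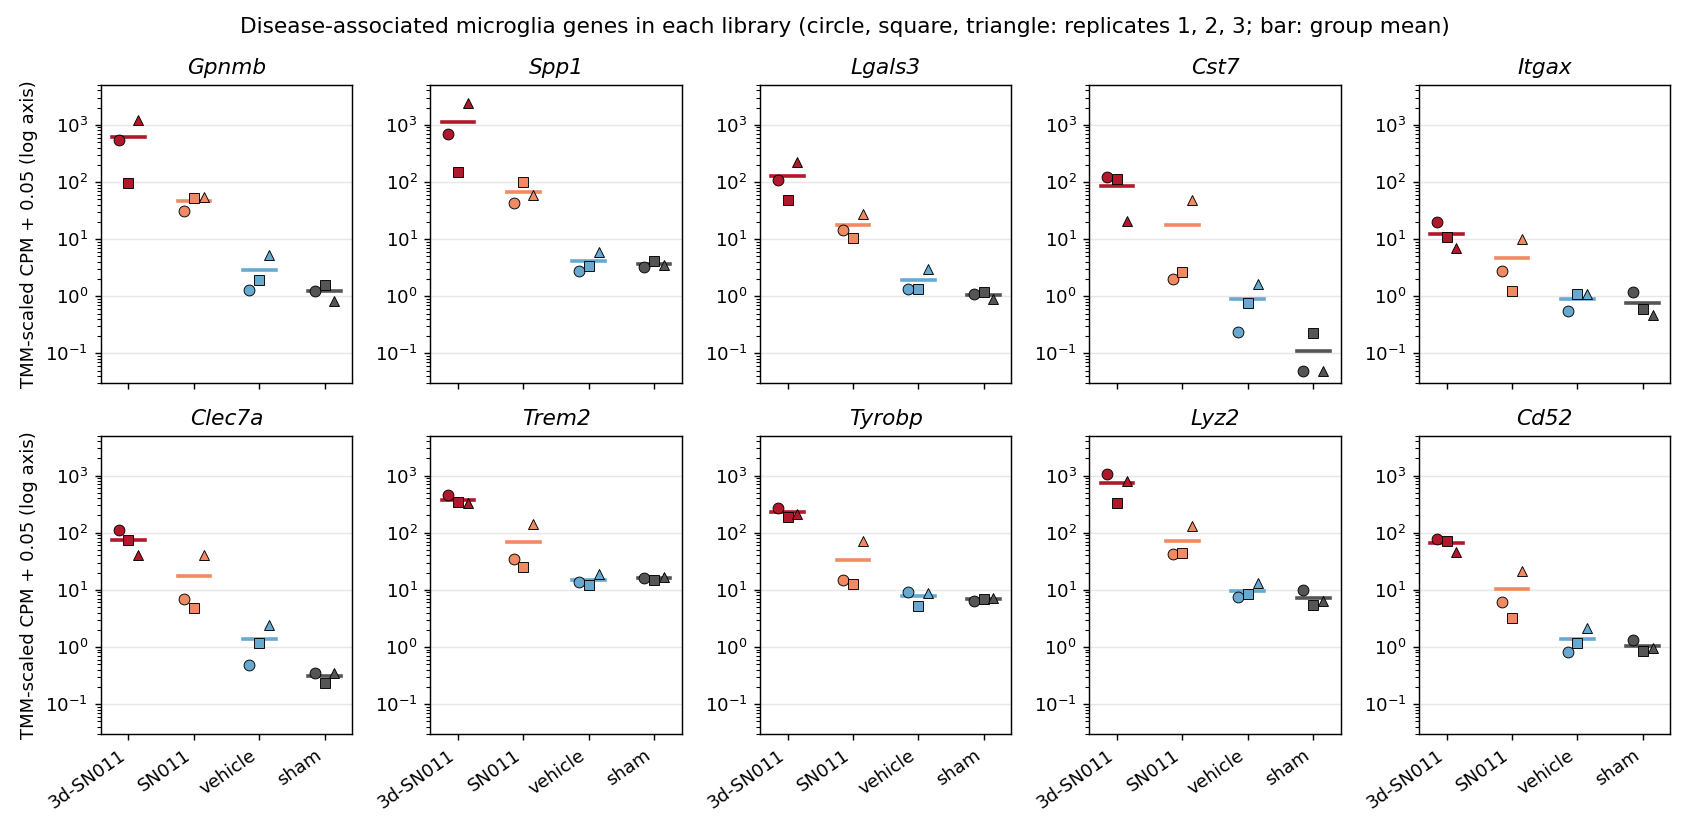
Level of each of the 10 genes in every library, as TMM-scaled CPM plus 0.05 on a log axis. Circles, squares and triangles are replicates 1, 2 and 3 and bars are group means (n = 3). All 10 genes are highest in 3d-SN011, and in the SN011 group the triangle, replicate 3, is the highest point for 9 of 10.

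Trem2 (ENSMUSG00000023992, chr17:48346401-48354147, protein-coding) was at 458, 342 and 333 CPM in the 3d-SN011 libraries, at 34.8, 24.7 and 142 CPM in SN011, at 13.8, 12 and 18.9 CPM in vehicle, and at 16.1, 14.7 and 16.7 CPM in sham. The 3d-SN011 values lay close together and above all others, SN011 replicate 3 lay apart from its group mates, and the vehicle and sham ranges overlapped. The log2 fold change was 4.66 ± 0.55 (SE) in 3d-SN011 against vehicle (edgeR, adjusted p = 2.70e-05) and 2.49 ± 0.50 against SN011 (adjusted p = 0.00158; 3.66 without SN011 replicate 3). It was 2.17 ± 0.51 in SN011 against vehicle (edgeR, adjusted p = 0.149), and 1.00 without SN011 replicate 3.

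Tyrobp (ENSMUSG00000030579, chr7:30413760-30417585, protein-coding), the signalling adaptor of TREM2, followed the same order, at 270, 191 and 215 CPM in 3d-SN011, 14.8, 12.8 and 70.9 CPM in SN011, 9.18, 5.14 and 8.75 CPM in vehicle, and 6.43, 6.73 and 7.02 CPM in sham. As for Trem2, SN011 replicate 3 stood alone between the other SN011 libraries and the 3d-SN011 libraries. The log2 fold change was 4.87 ± 0.58 in 3d-SN011 against vehicle (edgeR, adjusted p = 2.70e-05), 2.78 ± 0.51 against SN011 (adjusted p = 0.00101; 4.03 without SN011 replicate 3) and 2.09 ± 0.53 in SN011 against vehicle (adjusted p = 0.169), the last being 0.84 without SN011 replicate 3. Per kilobase of exon, the ratio of Trem2 to Tyrobp lay between 0.208 and 0.241 in 3d-SN011, between 0.260 and 0.316 in SN011, between 0.203 and 0.314 in vehicle and between 0.295 and 0.337 in sham. The receptor thus kept within a narrow band of its adaptor in all 12 libraries while their levels spanned a wide range, and the 3d-SN011 ratios lay below the sham ratios.

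Clec7a (ENSMUSG00000079293, chr6:129461591-129472779) encodes Dectin-1, a receptor for beta-glucans that also signals through SYK, and the annotation classes the gene as a polymorphic pseudogene. Its values were 110, 75.6 and 40.8 CPM in 3d-SN011, 6.82, 4.68 and 41.4 CPM in SN011, 0.437, 1.11 and 2.38 CPM in vehicle, and 0.303, 0.182 and 0.302 CPM in sham. SN011 replicate 3 reached the level of 3d-SN011 replicate 3, so those groups overlapped, and the lowest vehicle library stood above the highest sham library. Clec7a was higher in 3d-SN011 than in vehicle by a log2 fold change of 5.85 ± 0.85 (edgeR, adjusted p = 9.91e-05; 6.61 without vehicle replicate 3) and higher than in SN011 by 2.09 ± 0.67 (adjusted p = 0.0213). The call against SN011 was lost without 3d-SN011 replicate 1 (edgeR, adjusted p = 0.0732), without SN011 replicate 1 (0.0808) or 2 (0.0642) and in a fit of those 6 libraries alone (0.0789), and the value was 3.71 without SN011 replicate 3. Vehicle against sham gave 2.28 ± 1.29 (edgeR, adjusted p = 1) on 61 reads in all vehicle libraries and 13 in all sham libraries.

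Itgax (ENSMUSG00000030789, chr7:128129547-128150657, protein-coding) encodes CD11c, the alpha chain that pairs with the beta-2 integrin Itgb2 to form a complement receptor. It was at 19.5, 11 and 6.84 CPM in 3d-SN011, at 2.77, 1.17 and 9.86 CPM in SN011, at 0.500, 1.04 and 1.03 CPM in vehicle, and at 1.15, 0.546 and 0.423 CPM in sham. SN011 replicate 3 lay above 3d-SN011 replicate 3, so these groups overlapped. Itgax was higher in 3d-SN011 than in vehicle by 3.86 ± 0.72 on the log2 scale (edgeR, adjusted p = 0.000579), and the difference from SN011, 1.43 ± 0.61, missed the threshold (adjusted p = 0.0706), while without SN011 replicate 3 it was 2.66 and called (adjusted p = 0.00162). Of its 75-base words, 5.01% are shared with the neighbouring integrin gene Itgad.

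Gpnmb (ENSMUSG00000029816, chr6:49036546-49070929, protein-coding) encodes a glycoprotein of lysosomes and the cell surface that marks lipid-laden phagocytes. Its values were 553, 97.6 and 1226 CPM in 3d-SN011, 31.1, 52.9 and 53.9 CPM in SN011, 1.25, 1.89 and 5.21 CPM in vehicle, and 1.21, 1.52 and 0.786 CPM in sham. The 4 groups were ordered 3d-SN011, SN011, vehicle and sham by their means, with only the vehicle and sham ranges overlapping. Each SN011 library lay well above every PBS library, and the SN011 libraries lay close to each other, unlike those of Trem2 and Tyrobp. The log2 fold change was 7.81 ± 0.87 in 3d-SN011 against vehicle (edgeR, adjusted p = 2.06e-05; 6.87 without 3d-SN011 replicate 3 and 8.64 without vehicle replicate 3) and 3.77 ± 0.70 against SN011 (adjusted p = 0.00102; 2.82 without 3d-SN011 replicate 3). Against sham, SN011 was higher by 5.29 ± 0.85 (edgeR, adjusted p = 0.0348). Against vehicle, SN011 gave 4.05 ± 0.77 (edgeR, adjusted p = 0.149), and 4.74 with replicate 3 of both groups left out.

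Spp1 (ENSMUSG00000029304, chr5:104435118-104441050, protein-coding) encodes osteopontin, a secreted phosphoprotein that binds CD44 and integrins. It was at 699, 150 and 2462 CPM in 3d-SN011, at 43.2, 98.4 and 59.6 CPM in SN011, at 2.75, 3.32 and 5.98 CPM in vehicle, and at 3.15, 4.06 and 3.45 CPM in sham. Spp1 was the only one of the 10 genes for which SN011 replicate 2 was the highest of its group, and the vehicle and sham ranges overlapped. The log2 fold change was 8.10 ± 0.93 in 3d-SN011 against vehicle (edgeR, adjusted p = 2.25e-05; 6.72 without 3d-SN011 replicate 3), 4.04 ± 0.75 against SN011 (adjusted p = 0.00102; 2.66 without that library) and 4.06 ± 0.80 in SN011 against vehicle (adjusted p = 0.149). Of its 75-base words, 8.55% are shared with the overlapping gene model Gm42793.

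Lgals3 (ENSMUSG00000050335, chr14:47367751-47386160, protein-coding) encodes galectin-3, a sugar-binding protein that gathers on damaged lysosomes. It stood at 109, 48.1 and 222 CPM in 3d-SN011, at 14.2, 10.5 and 27.8 CPM in SN011, at 1.31, 1.30 and 2.96 CPM in vehicle, and at 1.03, 1.15 and 0.847 CPM in sham. The 4 groups did not overlap at all, so that the lowest vehicle library lay just above the highest sham library. Lgals3 was higher in 3d-SN011 than in vehicle by 6.08 ± 0.61 on the log2 scale (edgeR, adjusted p = 1.51e-05; 5.4 without 3d-SN011 replicate 3), higher than in SN011 by 2.85 ± 0.49 (adjusted p = 0.000679; 2.16 without that library), and higher in SN011 than in sham by 4.11 ± 0.62 (adjusted p = 0.0348). SN011 against vehicle gave 3.23 ± 0.58 (edgeR, adjusted p = 0.121).

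Cst7 (ENSMUSG00000068129, chr2:150570415-150578944, protein-coding) encodes cystatin F, an inhibitor of lysosomal cysteine proteases. Its levels were 121, 111 and 20.8 CPM in 3d-SN011, 1.96, 2.57 and 48.6 CPM in SN011, 0.187, 0.716 and 1.61 CPM in vehicle, and 0, 0.182 and 0 CPM in sham. The sham total was 3 reads in 3 libraries, against 4997 in 3d-SN011, 965 in SN011 and 39 in vehicle, so ratios over sham were 1414 for 3d-SN011 (exact 95% counting interval 484 to 6858), 303 for SN011 (103 to 1469) and 13.7 for vehicle (4.36 to 69.4), and these intervals cover counting error only. SN011 replicate 3 lay above 3d-SN011 replicate 3 and far above its group mates. The log2 fold change was 6.65 ± 1.30 in 3d-SN011 against vehicle (edgeR, adjusted p = 0.000840; 7.54 without vehicle replicate 3). It was 2.25 ± 0.97 in 3d-SN011 against SN011 (edgeR, adjusted p = 0.0734; 5.21 and called without SN011 replicate 3, adjusted p = 0.000201) and 4.40 ± 1.27 in SN011 against vehicle (adjusted p = 0.200; 1.44 without SN011 replicate 3).

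Lyz2 (ENSMUSG00000069516, chr10:117277331-117282321, protein-coding) encodes lysozyme, an enzyme that cuts bacterial cell walls and is made by myeloid cells. It was at 1052, 333 and 808 CPM in 3d-SN011, at 41.6, 44.0 and 130 CPM in SN011, at 7.56, 8.46 and 12.9 CPM in vehicle, and at 9.89, 5.33 and 6.41 CPM in sham. All 3d-SN011 libraries lay above all SN011 libraries, these above all PBS libraries, and vehicle and sham overlapped. Lyz2 had the smallest adjusted p of the 10 genes in 3d-SN011 against vehicle, with a log2 fold change of 6.25 ± 0.58 (edgeR, adjusted p = 1.23e-05), and in 3d-SN011 against SN011, with 3.35 ± 0.50 (adjusted p = 0.000322; 4.09 without SN011 replicate 3). SN011 was higher than sham by 3.32 ± 0.52 (edgeR, adjusted p = 0.0348; 2.57 without SN011 replicate 3) and stood 2.90 ± 0.51 above vehicle (adjusted p = 0.121; 2.15 without SN011 replicate 3).

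The intestinal lysozyme gene Lyz1 lies beside Lyz2 and shares 5.96% of the 75-base words of Lyz2, which could split reads between them. Lyz1 had at most 17 reads in any library while Lyz2 had 88 to 20557, so reads placed on Lyz1 made up a small part of the pair in every library. The promoter windows of the pair were identical at 112 of 120 positions from 100 bases before to 20 after the start (93.3%). Over the whole window of 300 bases, 67% of positions were identical. Bases were compared without gaps, so an inserted or lost base would lower these shares, and no divergence is read from them. The 120 bases are shown because these near copies had such unequal read counts.
Lyz2, chr10:117282253-117282372 (-): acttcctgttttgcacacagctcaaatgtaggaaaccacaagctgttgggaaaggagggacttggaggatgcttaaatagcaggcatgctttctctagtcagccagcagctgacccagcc
Lyz1, chr10:117292849-117292968 (-): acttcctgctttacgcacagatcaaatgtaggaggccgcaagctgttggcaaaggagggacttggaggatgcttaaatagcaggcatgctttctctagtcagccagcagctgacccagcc

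Cd52 (ENSMUSG00000000682, chr4:134082448-134095082, protein-coding) encodes a short lipid-anchored glycoprotein of leukocytes. Its values were 77.2, 72.9 and 45.7 CPM in 3d-SN011, 6.01, 3.16 and 21.5 CPM in SN011, 0.750, 1.11 and 2.12 CPM in vehicle, and 1.27, 0.788 and 0.907 CPM in sham. The 3d-SN011 values lay above all others, and SN011 replicate 3 again lay far above its group mates. Cd52 was higher in 3d-SN011 than in vehicle by 5.62 ± 0.65 (log2, edgeR, adjusted p = 2.42e-05) and than in SN011 by 2.67 ± 0.53 (adjusted p = 0.00162; 3.83 without SN011 replicate 3), and SN011 against vehicle gave 2.95 ± 0.63 (adjusted p = 0.149; 1.79 without SN011 replicate 3). Its exons overlap those of Crybg2 on the opposite strand, and the sources used here do not say whether counting used strand, so reads from the overlap cannot be told apart. Of the 75-base words of Cd52, 6.84% are shared with Crybg2.

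**Figure D2:**
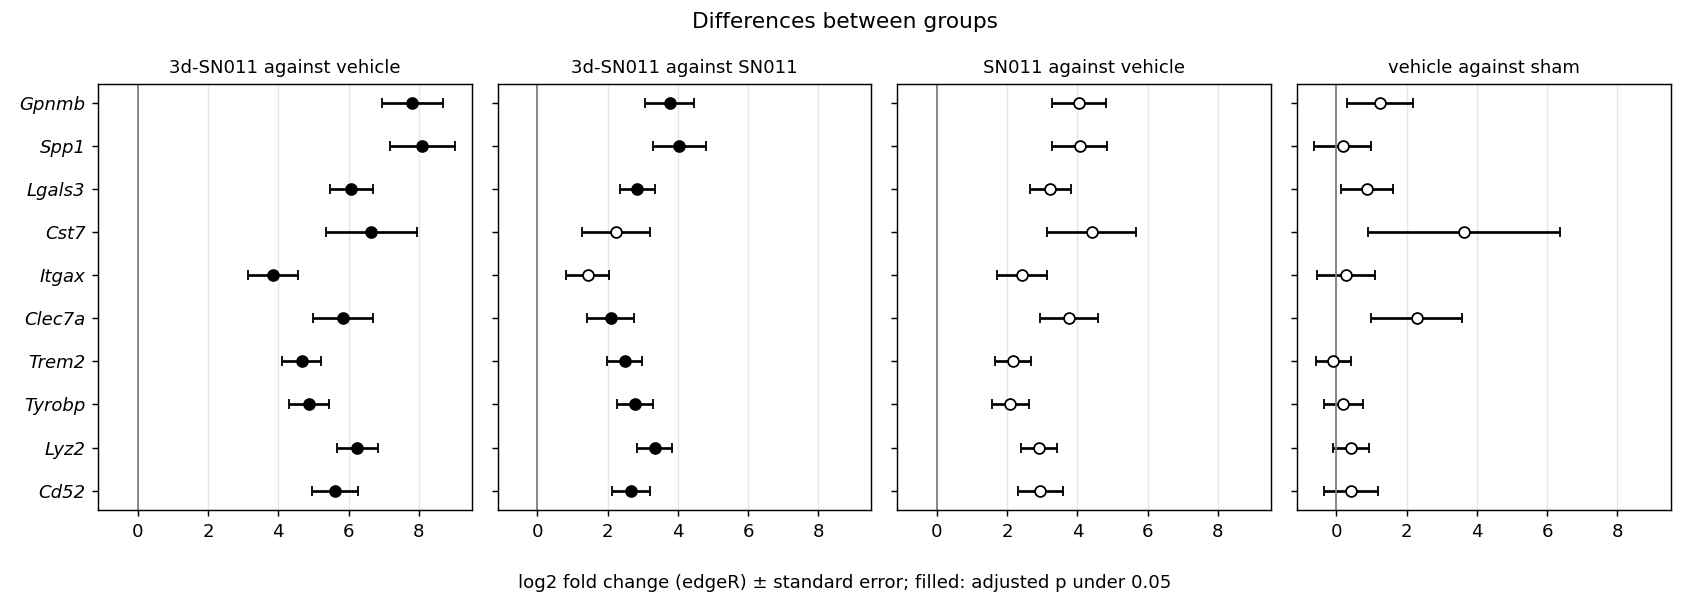
Log2 fold change of each gene from edgeR's quasi-likelihood fit, with its standard error as a bar, in 4 comparisons. Filled points have an adjusted p under 0.05: 10 of 10 in 3d-SN011 against vehicle, 8 of 10 in 3d-SN011 against SN011, and 0 of 10 in SN011 against vehicle and in vehicle against sham.

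The comparison of SN011 with vehicle, which sets drug against PBS without the unexplained prefix, depended on the test and on single libraries. All 10 log2 fold changes were positive, with a median of 3.09 (lowest 2.09 for Tyrobp, highest 4.40 for Cst7) against -0.01 over all genes, and their adjusted p lay between 0.121 and 0.211 in edgeR. DESeq2 called 9 of the 10, limma voom with quality weights 7, and edgeR 10 when SN011 replicate 2 was left out, whereas without SN011 replicate 3, or without replicate 3 of both groups, edgeR called 0. Those fits also called more of all genes higher, 426 in DESeq2, 781 in limma voom and 512 without SN011 replicate 2, against 2 in edgeR with every library. Without replicate 3 of both groups the median was 2.37, and the genes parted: Gpnmb and Spp1 stood at 4.74 and 4.54, and Itgax, Trem2 and Tyrobp at 1.35, 1.21 and 0.95. Against sham, the calls of Gpnmb, Lgals3 and Lyz2 were each lost when any 1 sham library was left out, those of Gpnmb and Lgals3 also without SN011 replicate 1 (edgeR, adjusted p = 0.0532 each), that of Gpnmb without SN011 replicate 3 (0.0504), and that of Lyz2 in a fit of those 6 libraries alone (0.121). DESeq2, and edgeR without SN011 replicate 2, called 10 of 10 against sham, where they called 606 and 670 of all genes higher, against 21 in edgeR with every library.

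Placed on the log2 distance between the 3d-SN011 mean (100%) and the sham mean (0%) of each gene, SN011 replicates 1, 2 and 3 lay at a median of 45.3%, 43.7% and 70.1% over the 10 genes. Vehicle replicates 1, 2 and 3 lay at 1.64%, 4.71% and 16.3%. Single genes ranged from 54.1% to 95.1% in SN011 replicate 3 and from 5.65% to 39.6% in vehicle replicate 3, which was the highest vehicle library for 8 of 10 genes. Without vehicle replicate 3, the median difference of vehicle from sham was 0.13 on the log2 scale, against 0.42 with it.

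Within the 3d-SN011 group the 10 genes did not all vary together, although replicate 1 was highest for 7 of 10. Gpnmb, Spp1 and Lgals3 were highest in replicate 3 and lowest in replicate 2, with a highest value 12.6, 16.4 and 4.6 times the lowest. Cst7, Itgax, Clec7a, Trem2 and Cd52 were lowest in replicate 3 and highest in replicate 1. Lyz2 and Tyrobp were lowest in replicate 2 and highest in replicate 1. Trem2 and Tyrobp spread least, with a highest value 1.38 and 1.41 times the lowest. On the log2 scale replicate 3 stood 1.95 above the group mean for Spp1 and 1.65 below it for Cst7 (a value of -1.65).

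**Figure D3:**
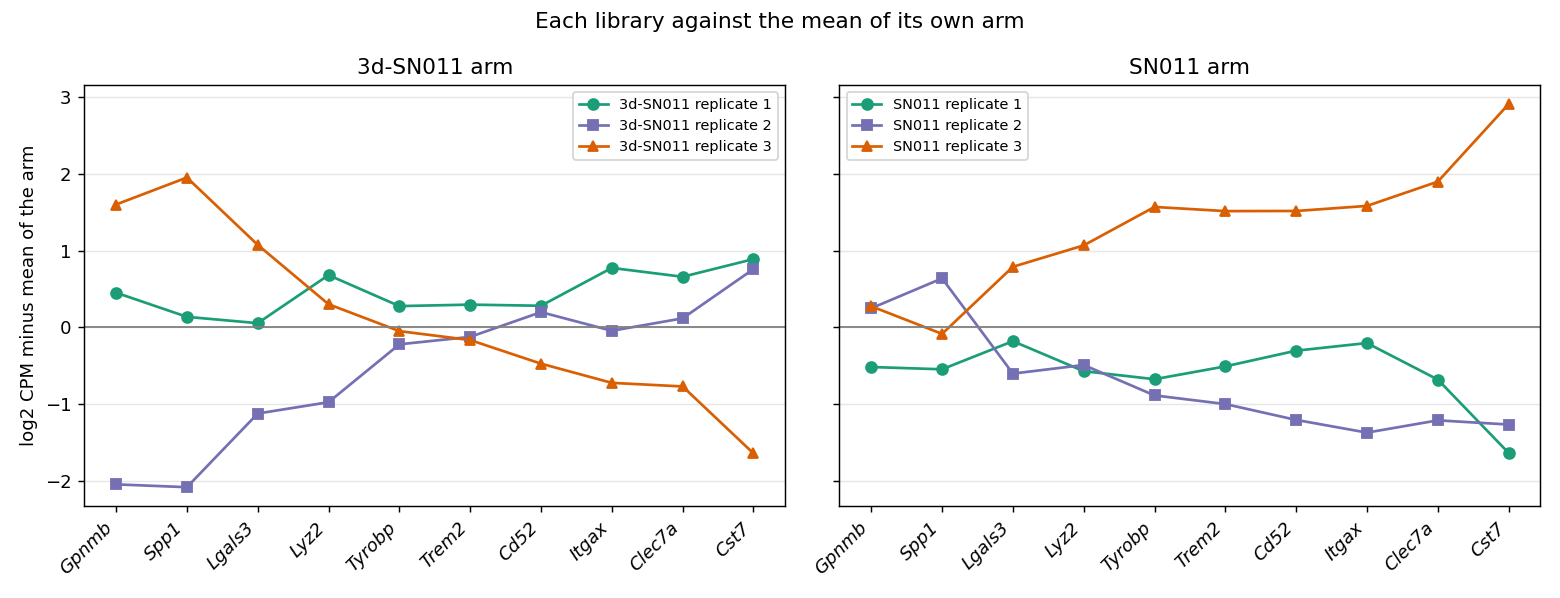
Log2 CPM of each gene in each library minus the mean of its group, for the 3d-SN011 and the SN011 libraries, with genes ordered by how they differed between the 3d-SN011 libraries. Lines only join the values of a library. In 3d-SN011, replicate 3 passes from 1.95 above the mean for Spp1 to -1.65 for Cst7, and in SN011 replicate 3 is farthest above the mean for Cst7, at 2.91.

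Lists of border-associated macrophages, homeostatic microglia and projection neurons also differed between the 3d-SN011 libraries. The 8 tested genes of border-associated macrophages were highest in 3d-SN011 replicate 3 in 8 of 8 cases, at a median of 0.99 above the group mean (log2), and 15 of 16 homeostatic microglia genes were lowest there, at a median of -0.68. The 14 projection neuron genes were lowest in replicate 1 in 14 of 14 cases, at a median of -1.47, and highest in replicate 3 in 13, at a median of 0.77. The list of monocytes and infiltrating macrophages did not set replicate 3 apart as a whole, with a median of 0.10 there and 0.18 in replicate 1, and 5 of its 10 tested genes highest and 4 lowest in replicate 3. Among its members, Ccr2 and Ly6c2 of monocytes were lowest in replicate 3, at -1.48 and -1.71 from the group mean. Arg1 and Chil3, which macrophages in injured tissue can express, stood at 7.33 and 16.8 CPM in 3d-SN011 replicate 3, against 0.102 and 1.79 CPM in replicate 1 and 0.198 and 0.989 CPM in replicate 2, and Arg1 had 0 reads in all sham libraries. The part of these cells in how the 10 genes varied between the 3d-SN011 libraries was not tested. The share of all genes highest or lowest in each library of a group was not computed, for these lists or for the 10 genes. Without 3d-SN011 replicate 3 all 10 genes were called higher than in vehicle, where 5471 of all genes were called higher. The median was 5.98 against 5.97 with it, but single genes moved. The values of Gpnmb, Spp1 and Lgals3, which were highest in replicate 3, were smaller without it, as given above.

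Within the SN011 group, replicate 3 was highest for 9 of 10 genes, but by very unequal margins. The highest value was 24.7 times the lowest for Cst7, 8.84 times for Clec7a and 8.43 times for Itgax, against 1.73 times for Gpnmb, 2.28 times for Spp1 and 2.64 times for Lgals3. The genes that differed most between the SN011 libraries were thus those lowest in 3d-SN011 replicate 3. Homeostatic microglia genes (16 of 16) and reactive astrocyte genes (9 of 10) were also highest in SN011 replicate 3, and 13 of 14 projection neuron genes were lowest there. The part of these differences in the values of the 10 genes was not tested. Here too the share of all genes highest or lowest in each library was not computed.

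Per kilobase of exon (RPKM), the 10 genes were ordered by their group means. In 3d-SN011 it was led by Spp1 at 670 ± 733 RPKM, Lyz2 at 556 ± 278 and Tyrobp at 338 ± 60.6 (mean ± SD, n = 3), whose ranges overlapped, Spp1 lying between 90.8 and 1494 RPKM with its highest value in replicate 3, and it ended with Clec7a at 28.6 ± 13.1 and Itgax at 2.60 ± 1.35. SN011 was led by Lyz2 at 54.6 ± 38.2 RPKM, Tyrobp at 49.3 ± 49.4 and Spp1 at 40.7 ± 17.2, and each gene overlapped the next in order. Tyrobp came first in the PBS groups, at 11.5 ± 3.33 RPKM in vehicle and 10.1 ± 0.440 in sham, followed by Lyz2 at 7.32 ± 2.16 and 5.48 ± 1.81 and Trem2 at 3.01 ± 0.728 and 3.20 ± 0.203. In sham each of these lay above the next without overlap, and the last places went to Gpnmb at 0.180 ± 0.0562, Itgax at 0.147 ± 0.0813, Clec7a at 0.0995 ± 0.0265 and Cst7 at 0.0615 ± 0.106, which overlapped.

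The rest of the TREM2-TYROBP and Dectin-1 route was also higher in 3d-SN011 than in vehicle in 13 of 14 genes. Of all genes tested, 28.9% were called higher, and the median log2 fold change of the 14 was 3.36. Syk, the kinase that both receptors recruit, was at 60.6, 31.5 and 57.0 CPM in 3d-SN011, 8.95, 8.36 and 17.8 in SN011, 4.0, 3.97 and 5.53 in vehicle, and 5.34, 5.46 and 4.6 in sham, a log2 fold change of 3.46 ± 0.33 in 3d-SN011 against vehicle (edgeR, adjusted p = 1.37e-05). Its inhibitory counterparts Inpp5d, the lipid phosphatase SHIP1, and Ptpn6, the tyrosine phosphatase SHP-1, rose as well, by 3.18 ± 0.34 and 3.98 ± 0.43 (edgeR, adjusted p = 1.74e-05 and 1.83e-05). Hcst, the adaptor DAP10 that can pair with TREM2 beside TYROBP, rose by 3.62 ± 0.47 (edgeR, adjusted p = 4.85e-05), and the tyrosine kinase Lyn by 3.36 ± 0.38 (2.28e-05). Malt1, a protease downstream of Dectin-1, was the exception at -0.01 ± 0.13 (edgeR, adjusted p = 0.944). Against SN011 13 of 14 were higher in 3d-SN011 (23.6% of all genes), at a median of 2.08. SN011 against vehicle gave 0 calls in edgeR (0.0108% of all genes called higher), at a median of 1.21.

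Receptors and partners of the 10 genes moved in both directions. Of 15, 11 had enough counts, of which 9 were higher and 1 lower in 3d-SN011 than in vehicle (28.9% and 28.2% of all genes). Cd44, a receptor of osteopontin, was at 117, 172 and 57.2 CPM in 3d-SN011, 18.3, 7.96 and 55.5 in SN011, 2.50, 3.19 and 5.08 in vehicle, and 2.67, 2.85 and 3.33 in sham, and rose by 5.0 ± 0.66 in 3d-SN011 against vehicle (edgeR, adjusted p = 4.91e-05). Itgb2, the beta chain of CD11c, and Itgam, the alpha chain CD11b, rose by 4.11 ± 0.41 and 3.39 ± 0.49 (edgeR, adjusted p = 1.54e-05 and 9.30e-05). The osteopontin-binding integrins were uneven: Itgb5 rose by 2.96 ± 0.34 and Itgb1 by 1.44 ± 0.14 (edgeR, adjusted p = 2.17e-05 and 1.54e-05), Itgav gave 0.33 ± 0.15 (0.0794), and Itga9 fell by 1.87 ± 0.20 (1.78e-05). Itgad, Lyz1, Treml1 and Trem1 had too few counts, and Trem1 had 0 reads in all vehicle and sham libraries.

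Other genes of the disease-associated programme were higher in 3d-SN011 than in vehicle in 30 of 31 cases (28.9% of all genes). Their median was 3.19, which is below the 5.97 of the 10 genes. The lysosomal protease Ctsd was at 6916, 4135 and 5210 CPM in 3d-SN011, 438, 402 and 1865 in SN011, 157, 171 and 242 in vehicle, and 194, 174 and 163 in sham, and the lysosomal membrane glycoprotein Cd68 at 339, 245 and 449 in 3d-SN011, 26.2, 28.6 and 107 in SN011, 16.1, 12.9 and 15.1 in vehicle, and 11.8, 10.7 and 13.8 in sham. They rose in 3d-SN011 against vehicle by 4.83 ± 0.55 and 4.55 ± 0.49 (edgeR, adjusted p = 2.25e-05 and 1.82e-05). Apoe, a lipid carrier that astrocytes also make and a ligand of TREM2, rose by 3.39 ± 0.42, the serine carboxypeptidase Ctsa by 2.64 ± 0.27 and the ferritin heavy chain Fth1 by 1.31 ± 0.18 (edgeR, adjusted p = 3.42e-05, 1.57e-05 and 5.89e-05). Ank, the exception, was at 221, 230 and 195 CPM in 3d-SN011 and 191, 206 and 232 in vehicle. In SN011 against vehicle 0 of 31 were called in edgeR (0.0108% of all genes called higher), at a median of 1.21. Within the SN011 group, 29 of 31 were highest in replicate 3, a count for which the share of all genes was not computed.

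Of 14 transcription factors tied to the programme or to myeloid identity, 12 were higher in 3d-SN011 than in vehicle (28.9% of all genes). Their median was 1.88. Cebpa, a factor of myeloid differentiation, was at 213.9, 123.3 and 183.5 CPM in 3d-SN011, 26.9, 23.5 and 69.0 in SN011, 10.7, 11.7 and 19.3 in vehicle, and 10.3, 13.9 and 10.6 in sham, and rose by 3.64 ± 0.40 in 3d-SN011 against vehicle (edgeR, adjusted p = 1.95e-05). Tfeb, a driver of lysosomal genes, rose by 1.74 ± 0.19, and Bhlhe41, a repressor expressed in microglia, by 0.91 ± 0.12 (edgeR, adjusted p = 1.86e-05 and 5.80e-05). Mitf, placed upstream of the disease-associated programme in human microglia-like cells, and Pparg, a lipid sensor of macrophages, were the exceptions, at 0.06 ± 0.16 and 0.95 ± 0.63 (edgeR, adjusted p = 0.764 and 0.213).

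Homeostatic microglia genes are switched down in the disease-associated state in mouse models of Alzheimer disease. Here they were also higher in 3d-SN011 than in vehicle, in 15 of 16 cases (28.9% of all genes) and at a median of 2.55. Tmem119 was at 172, 119 and 108 CPM in 3d-SN011, 39.3, 32.4 and 58.0 in SN011, 17.5, 17.9 and 26.2 in vehicle, and 25.6, 20.2 and 20.1 in sham. Csf1r, the receptor on which microglia depend to survive, was at 1084, 1011 and 683 CPM in 3d-SN011, 214, 156 and 470 in SN011, 120, 121 and 144 in vehicle, and 144, 129 and 128 in sham. The log2 fold changes in 3d-SN011 against vehicle were 2.69 ± 0.25 and 2.85 ± 0.34 (edgeR, adjusted p = 1.23e-05 and 2.71e-05). The smallest value in the list was that of Slc2a5, the fructose transporter of microglia, at 1.13 ± 0.48 (edgeR, adjusted p = 0.0620).

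Set against the median log2 level of these 16 genes in the same library, the 10 genes were still higher in 3d-SN011 than in sham, by a median of 4.09 (lowest 1.45 for Itgax, highest 6.24 for Cst7), with no overlap for 10 of 10. Leaving out any 1 library of the pair moved this median between 3.50 and 4.72, and with 8 astrocyte genes as the yardstick it was 4.75. Trem2, for example, stood 1.47 ± 0.38 above the homeostatic median in 3d-SN011, -0.08 ± 0.74 in SN011, -0.85 ± 0.10 in vehicle and -0.63 ± 0.16 in sham (log2, mean ± SD, n = 3). The median difference was 3.51 in 3d-SN011 against vehicle, with no overlap for 10 of 10, 1.77 in 3d-SN011 against SN011 with no overlap for 4, and 1.92 in SN011 against vehicle with no overlap for 7. The relative levels of Gpnmb, Lgals3 and Lyz2 had SDs of 0.64, 0.12 and 0.41 in the SN011 group, against 1.98 for Cst7. These differences are descriptions with no test, and the share of all genes without overlap on this relative scale was not computed. The part of other cells that carry the 10 genes was not tested.

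**Figure D4:**
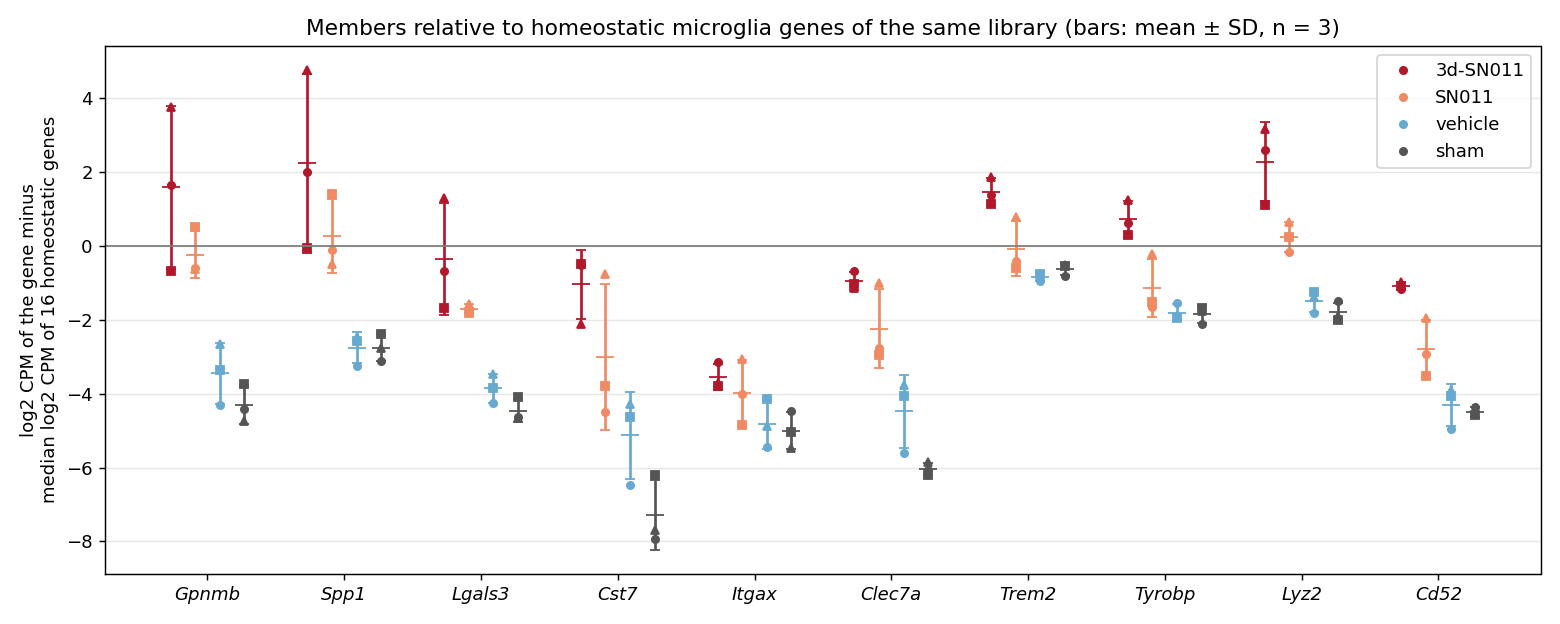
Log2 CPM of each gene minus the median log2 CPM of 16 homeostatic microglia genes in the same library, by group. Points are libraries and bars are mean ± SD (n = 3). All 10 genes are higher in 3d-SN011 than in vehicle and sham by this measure, from 1.45 (Itgax) to 6.24 (Cst7) above sham.

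Markers of other cells that could carry these genes were present to different degrees. Monocyte and infiltrating macrophage genes summed to 189 to 512 CPM in 3d-SN011, 121 to 160 in SN011, 89.0 to 118 in vehicle and 113 to 124 in sham. Of 12, 10 had enough counts, and 10 of 10 were higher in 3d-SN011 than in vehicle (28.9% of all genes). Fn1, which vessel cells also express, made up most of that sum in 3d-SN011, and the monocyte receptor Ccr2 reached 5.78, 3.81 and 0.916 CPM in 3d-SN011, against 0.562, 1.37 and 0.193 CPM in vehicle. Border-associated macrophage genes summed to 55.3 to 169 CPM in 3d-SN011, 31.2 to 35.9 in SN011, 24.8 to 32.3 in vehicle and 25.6 to 30.4 in sham. They were split, with 6 of 8 tested genes higher in 3d-SN011 than in vehicle and 1 lower (28.9% and 28.2% of all genes). Siglec1 was higher by 5.54 ± 0.42, and the haemoglobin scavenger receptor Cd163 fell by 2.51 ± 0.44 (edgeR, adjusted p = 1.21e-05 and 0.000365). Siglec1 was also higher in SN011 than in vehicle, by 3.00 ± 0.41 (edgeR, adjusted p = 0.0414).

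Of 12 neutrophil genes 3 had enough counts and 1 was higher in 3d-SN011 than in vehicle, Csf3r, by 3.74 ± 0.56 (edgeR, adjusted p = 0.000116), a receptor gene that microglia also express and that made up most of the list's sum of 85.9 to 237 CPM in 3d-SN011, 21 to 102 in SN011, 13.9 to 15.5 in vehicle and 12.7 to 14.4 in sham. The neutrophil marker Ly6g had 0 reads in every library of SN011 and sham and at most 0.0989 CPM in any library. Dendritic cell genes, which matter for Itgax, summed to 14.0 to 23.6 CPM in 3d-SN011, 11.3 to 16.8 in SN011, 12.1 to 16.2 in vehicle and 14.2 to 16.2 in sham, with 2 of 5 tested genes of 9 higher in 3d-SN011 than in vehicle. These shares of the neutrophil and dendritic lists lie near the 28.9% of all genes called higher in that comparison. Lymphocyte genes, which matter for Cd52, summed to 25.9 to 31.5 CPM in 3d-SN011, 57.3 to 92.1 in SN011, 81.5 to 104 in vehicle and 84.4 to 96.1 in sham, with 5 of 7 tested genes of 14 higher and 1, Cd4, lower in 3d-SN011 than in vehicle. Cd4 had the highest mean CPM of the list, and the sum was lower although the median log2 fold change of the tested genes was 4.66. The part of these cells in the levels of the 10 genes was not tested. Reactive astrocyte genes also differed between the groups, with 10 of 10 higher in 3d-SN011 than in vehicle (28.9% of all genes). They summed to 8440 to 12815 CPM in 3d-SN011, 769 to 5427 in SN011, 234 to 677 in vehicle and 163 to 213 in sham. Within 3d-SN011 their sums were 10298, 12815 and 8440 CPM in replicates 1, 2 and 3, where the 10 genes summed to 3469, 1433 and 5380. General astrocyte genes were higher in 7 of 8 cases, oligodendrocyte genes in 6 of 8 and endothelial genes in 5 of 8, with medians of 1.39, 0.70 and 0.56 on the log2 scale.

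**Figure D5:**
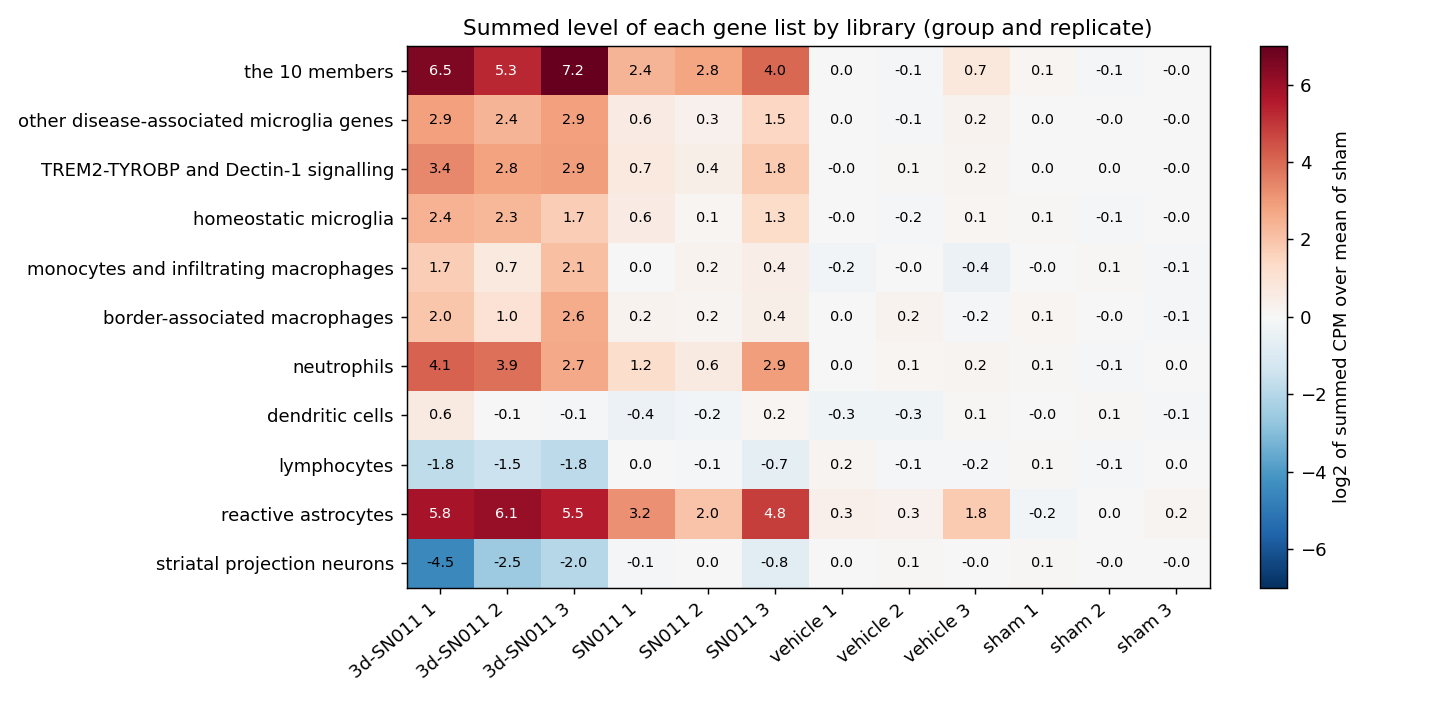
Summed CPM of each marker list in each library, as the log2 ratio to the mean of the sham libraries; each square is a library and the printed number is its value. The 10 genes and the reactive astrocyte list reach the highest values in 3d-SN011, the border-associated macrophage list is highest in 3d-SN011 replicate 3, and SN011 replicate 3 differs from its group mates in most lists.

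By Pearson's r over the 12 libraries between its log2 CPM and the mean of the 10 standardised genes, the genes most like the group were Pyroxd2 and C1qa, a subunit of the complement starter C1q (0.991 each), the integrin chain Itgb2 (0.991), Cebpa (0.990) and Capg, an actin-capping protein of macrophages (0.990). Over the 9 libraries without 3d-SN011 the same genes had an r of 0.970 to 0.980. C1qa, for example, was at 1322, 865 and 1163 CPM in 3d-SN011, 99.2, 77.4 and 380 in SN011, 31.8, 25.6 and 54.2 in vehicle, and 36.9, 28.9 and 31.6 in sham. Such values were common, since 13.6% of the 14080 genes compared had an r of at least 0.9 and all libraries of a group shared its treatment. The lowest r of any of the 10 genes with the mean of the others was 0.935.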

How the data were processed

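For each library the authors deposited a table of unnormalised counts of reads for the same 54532 Ensembl genes (54409 with a symbol and 0 entries naming no gene). The submitters' processing notes name HISAT2, featureCounts and mm10. The sources used here do not give their versions, the annotation or whether strand was used. Totals were 15806076 to 18622053 counts per library, which sets the precision of low genes. Groups came from the titles.

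Counts were fitted in R 4.3.3 with edgeR 4.0.16: filterByExpr by group (minimum count 10, 18537 genes kept), TMM scaling and 1 quasi-likelihood fit of all 12 libraries with group as the only term. All 6 pairs of groups were tested, and a call is a p under 0.05 after Benjamini-Hochberg adjustment over the whole table. Standard errors are the log2 fold change over the root of F. The log2 CPM values used for deviations, relative levels and likeness carry a prior count of 2. RPKM uses union exon lengths of GENCODE M21, whose GRCm38 gene positions are given. The fit was tested on simulated data. Alternatives were RLE scaling, DESeq2 1.42.0, no filter, the 6 libraries compared, the replicate number as a block, limma 3.58.1 voom with quality weights, 9 libraries without 3d-SN011 and leaving out each library. Leaving out replicate 3 of vehicle and SN011 together, and leave-one-out values of the relative level, were added after seeing the data. Promoter sequences are from RefSeq. Figures used matplotlib 3.10.9 in Python 3.11.15.

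The 10 genes and the 15 gene lists were chosen with earlier results of these data known. Genes named beside the 10 were drawn from the 3 with the highest mean CPM and the 2 called genes with the smallest adjusted p in 3d-SN011 against vehicle of each list, Lyz1, Itgb2, Itgam, Hcst and Cd44, and the 5 most like the group. Others (Arg1, Ccr2, Ly6c2, Ly6g, Gm42793, Itgad, the exceptions within lists and genes beside which a count stands) were chosen after their values were seen.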

Additional observations from a re-analysis of the deposited data

How the results depend on the processing

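In 3d-SN011 against vehicle and against sham, all 10 genes were called higher under every alternative run. The same fits called 4597 to 5560 of all genes higher against vehicle and 4723 to 5680 against sham. Of 760 alternative log2 fold changes of the 10 genes, 653 kept their direction and side of the threshold, 17 were no longer called, 86 became called and 4 changed sign. All 4 sign changes were in vehicle against sham, where 0 of the 10 was called: Spp1 at -0.15 in limma voom, and with 1 library left out Spp1 (-0.23 to 0.39), Trem2 (-0.30 to 0.047) and Cd52 (-0.10 to 0.70). Counts of called genes moved most where few were called. SN011 against vehicle called 3 genes and 0 of the 10, against 443 and 9 in DESeq2, 601 and 10 with no filter, 5 and 2 in a fit of the 6 libraries, 1179 and 7 in limma voom, and 17 and 4 in the 9 libraries. Leaving out 1 library gave 0 to 521 genes and 0 to 10 of the 10, and leaving out replicate 3 of both groups 6 genes. SN011 against sham called 21 genes and 3 of the 10, against 638 and 10 in DESeq2, 775 and 10 with no filter, 7 genes in the 6 libraries, 1875 and 10 in limma voom and 50 and 5 in the 9 libraries. Leaving out 1 library gave 0 to 703 genes and 0 to 10 of the 10. Vehicle against sham called 0 genes, against 5 in DESeq2, 5 with no filter, 16 in the 6 libraries, 32 in limma voom and 1 in the 9 libraries. In 3d-SN011 against SN011, 7 to 10 of the 10 were called over all alternatives, where 2771 to 4651 of all genes were called higher. The cause of these differences was not tested.

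Libraries of the same number did not deviate together (r from -0.29 to 0.14), so the numbers were not taken as pairs. With the replicate number as a block, SN011 against vehicle gave 19 genes and 2 of the 10, and SN011 against sham 28 genes and 3 of the 10. In 3d-SN011 against SN011 that fit called 9 of the 10, with 4045 of all genes called higher. Depth limits Cst7, Clec7a, Itgax and Gpnmb in the sham libraries, with 3, 13, 35 and 58 reads in all 3.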
